A study of Mus musculus with 3 samples.

Results

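The probes described here were measured on exactly 2 of 3 arrays and had deposited log2 ratios below -0.41 on both. If the ratio is GFP+ over GFP-, this is the side of the kidney cells outside the ureteric tree. These probes number 101 of the 1022 gene probes with exactly 2 values, among 21819 gene probes of the Mouse Compugen design. After centring by probe number, described below, 40 of the 101 no longer met the rule. Of the 101, 93 matched 1 gene symbol each, all different, 1 matched several genes and 7 matched none. The probes were selected on their measured log2 ratios, which are therefore given as a description and not tested.

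Each array compared amplified RNA of sorted GFP+ cells with RNA of GFP- cells, with both sexes pooled. The cells came from kidneys of HoxB7-GFP transgenic mouse embryos at 15.5 days post coitum. There were 3 arrays, and the sources used here state no dye swap. The Hoxb7 promoter drives green fluorescent protein in the ureteric tree, so the GFP- fraction is a mixture of all remaining kidney cells, and a lower ratio cannot tell apart fewer cells of a type from less RNA per cell. The ratio is read as GFP+ over GFP-, the likely direction, since the dyes are not stated. Strain, litter and the number of embryos are not given in the sources used here, nor whether the arrays came from separate pools, so the p-values reflect how far these arrays scattered, possibly for technical reasons.

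The embryonic kidney outside the ureteric tree holds cap mesenchyme, whose progenitors condense around the ureteric tips and form nephrons, as well as interstitial stroma, vessels, blood and resident macrophages. Macrophages settle in the kidney before birth and are known for clearing dying cells and for Fc receptors, which bind antibodies. Primitive red cells, which still circulate at this age, carry embryonic globins. A gene expressed mainly outside the ureteric tree gives a log2 ratio below 0.

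Array 1 stood apart from the others. Across the 4399 probes with values on all 3 arrays, Pearson's r was 0.879 between arrays 2 and 3, 0.274 between arrays 1 and 3 and 0.0765 between arrays 1 and 2. These are correlations across probes, which are not independent replicates. The pairs of arrays entered the selection very unevenly. Of the 382 probes with values on arrays 2 and 3 only, 94 met the rule (24.6%), against 5 of 498 on arrays 1 and 3 (1.00%) and 2 of 142 on arrays 1 and 2 (1.41%). Over all pairs the share was 9.88%, and 54 of the 1022 probes (5.28%) had both ratios above 0.41. Ratios of opposite sign made up 76.8% of the probes on arrays 1 and 2, 64.5% of those on arrays 1 and 3 and 13.4% of those on arrays 2 and 3. The 94 probes of arrays 2 and 3 thus have no value on the array that differed from the other pair.

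The ratios also followed the number in the probe's name. The design has a base set of 7445 oligonucleotides and an extended set of 14374, each with running numbers, and the median ratio of an array changed step by step over a cycle of 6 numbers. Place 6 of the cycle is used here for numbers divisible by 6 in the base set and for numbers with a remainder of 3 in the extended set. Among probes with values on all 3 arrays, which the selection did not use, the 630 at place 6 had medians of 0.59 on array 1, -0.67 on array 2 and -0.43 on array 3. At place 1 the medians of the 541 such probes were -0.27, 0.42 and 0.19. Arrays 2 and 3 ran from positive to negative medians along the cycle and array 1 ran the opposite way. The sources used here do not say whether the number follows the place of a spot on the slide.

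**Figure D1:**
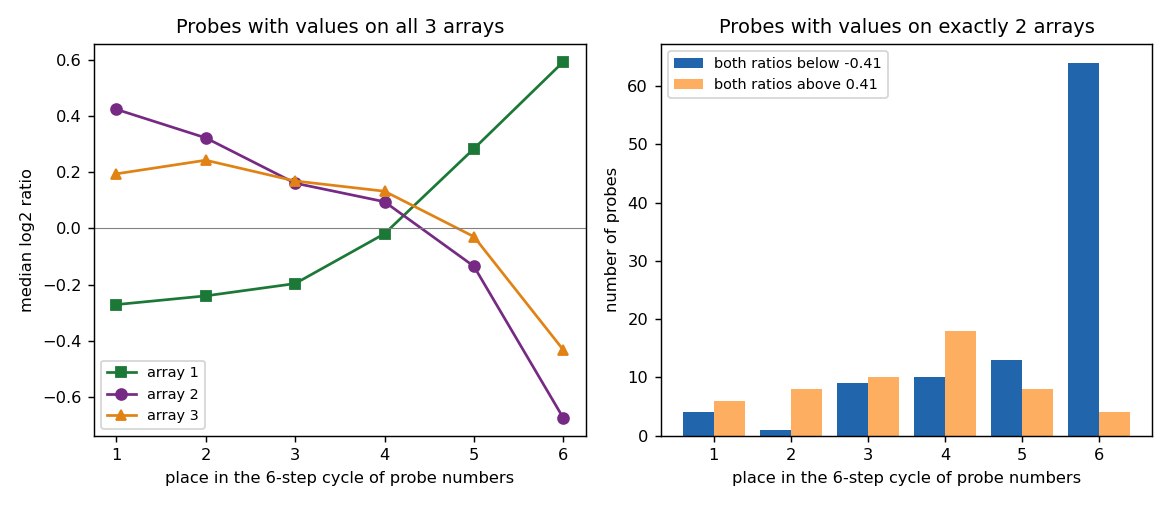
Left, median log2 ratio of each array (vertical axis) at the 6 places of the probe numbering cycle (horizontal axis), over the 4399 probes with values on all 3 arrays. Right, number of probes with values on exactly 2 arrays that had both ratios below -0.41 (blue) or both above 0.41 (orange) at each place. Place 6 holds 64 of the 101 low probes and 4 of the 54 high ones.

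Place 6 held 64 of the 101 probes (63.4%), all measured on arrays 2 and 3, while it held 16.8% of all gene probes and 107 of the 382 probes of that pair. The remaining 37 lay at places 1 to 5. Of the probes on all 3 arrays, 503 of 4399 (11.4%) were below -0.41 on both arrays 2 and 3, and 130 (2.96%) on all 3 arrays. At place 6 these were 300 of 630, of which 10 were below -0.41 on array 1 as well, and the median of the 300 on array 1 was 0.54. At places 1 to 5 they were 203 of 3769, of which 120 were below -0.41 on array 1, with a median of -0.65. A low pair of values on arrays 2 and 3 was thus seldom matched by array 1 at place 6 and was matched in 59.1% of probes elsewhere. For the 64 probes at place 6 array 1 gives no value.

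To set the numbering aside, each ratio was centred on the median of the 3-array probes of the same oligonucleotide set and the same remainder on division by 24, a step chosen after the data were seen. After this centring Pearson's r between arrays 1 and 2 was 0.702 and between arrays 1 and 3 was 0.799, while arrays 2 and 3 kept 0.871. The rule was then met by 93 probes, 61 of them among the 101. Of the 40 that no longer met it, 34 were at place 6. Genes below are given with their deposited ratios, and those described at place 6 also with their centred mean.

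**Figure D2:**
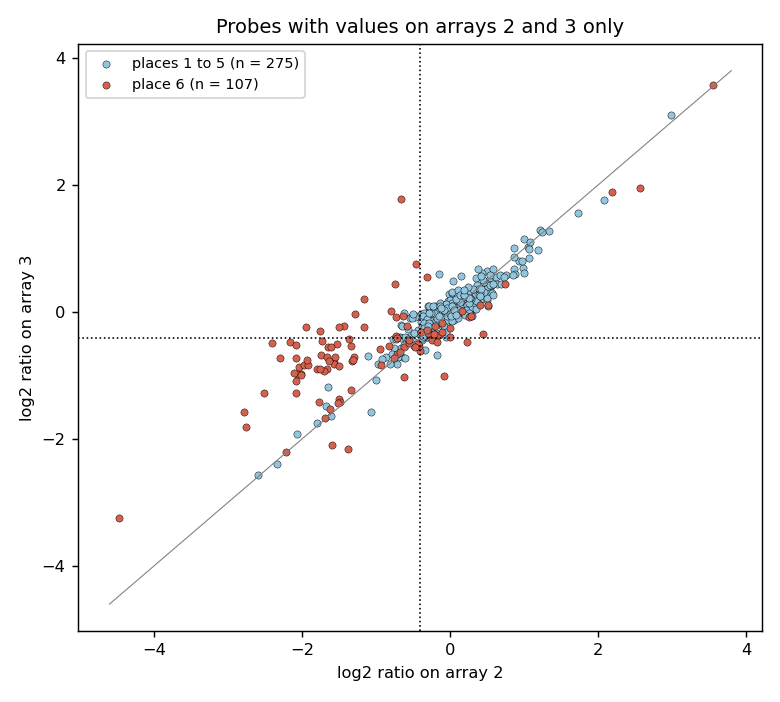
Log2 ratio on array 2 (horizontal axis) against array 3 (vertical axis) for the 382 probes with values on these arrays only, with place 6 in red and places 1 to 5 in blue. Dotted lines mark -0.41 and the grey line marks equal values. Probes at places 1 to 5 lie along the line of equal values, and a cloud of probes at place 6 lies above it, lower on array 2 than on array 3.

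Genes on cell type lists made up 23 of the 93 genes (24.7%), where 7.18% of all genes of the design were on a list and 7.81% of the genes with exactly 2 values were. The share was 39.6% (21 of 53 genes) among the probes that also met the rule after centring and 5.0% (2 of 40) among those that did not. The former were also lower as deposited, with a median of means of -1.40 against -0.85, so this split partly follows the selecting ratios. Among genes with values on all 3 arrays, limma called 13 of the 23 tested genes of the ureteric list higher in GFP+ cells and 0 lower. Over all genes 1.38% were higher and 1.40% lower. The lists were chosen with earlier results of these data known. Neither these counts nor the list shares are therefore an independent check. Leukocytes gave 7 of the 23 genes, stroma 5, erythroid cells 2 and cap mesenchyme 2. Proximal tubule and cell cycle lists gave 2 each, and early nephron, endothelium and podocyte lists gave 1 each. Granulocyte, platelet, smooth muscle, distal nephron and nerve lists gave 0, with between 0 and 5 genes of each having exactly 2 values. In these member counts a gene on several lists is counted under the first. Counting each gene on all its lists, genes with exactly 2 values numbered 10 for leukocytes, 11 for stroma, 4 for erythroid cells and 4 for cap mesenchyme. For proximal tubule they numbered 11, for cell cycle 7, for early nephron 1, for endothelium 5 and for podocyte 5. The leukocyte list was the longest, with 217 genes.

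**Figure D3:**
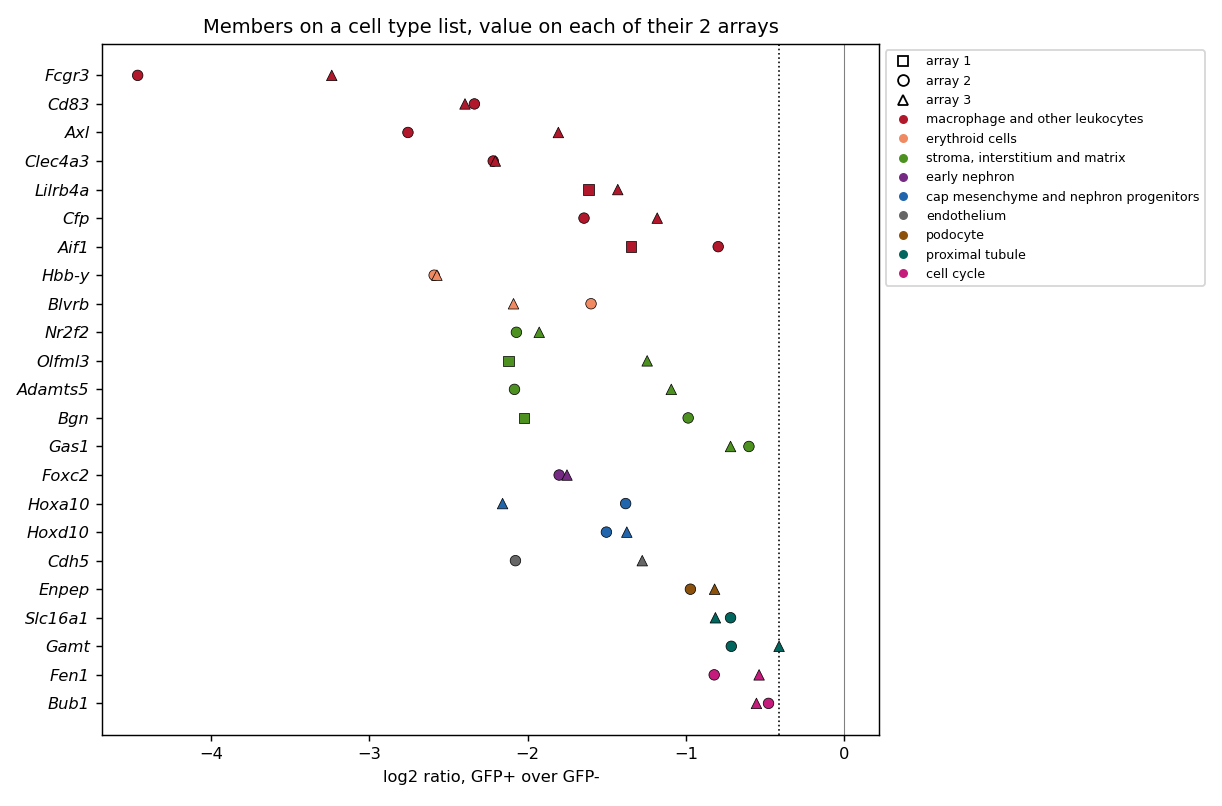
Log2 ratios of the 23 genes on a cell type list, 1 gene per row, with 1 symbol for each of its 2 arrays (square, array 1; circle, array 2; triangle, array 3) and colours for the lists. The dotted line marks -0.41. Leukocyte and erythroid genes reach furthest down, from -4.46 for Fcgr3, and Gamt, with -0.41 on array 3, lies nearest the line.

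Promoter stretches of 4 leukocyte genes are shown first, because the leukocyte list, the longest, gave the most genes of the group. The lineage factor PU.1 is also known to bind a short motif that can be looked for in promoters. The motif GAGGAA, or its reverse complement TTCCTC, was searched on both strands in the 250 bases before each start in the RefSeq promoters of GRCm38.p6. It was present for 4 of the 5 leukocyte genes with a promoter in that table, 17 of the 74 such genes of the whole group, and 25.9% of 27025 genes. Capitals mark the match, and each stretch reads 5′ to 3′ on the strand of its gene.
Fcgr3, minus strand of chr1:171059395-171059434: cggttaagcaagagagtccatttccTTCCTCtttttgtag
Clec4a3, plus strand of chr6:122952569-122952624: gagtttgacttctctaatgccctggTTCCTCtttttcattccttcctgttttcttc
Aif1, minus strand of chr17:35176053-35176084: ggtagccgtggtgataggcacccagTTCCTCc
Axl, minus strand of chr7:25788833-25788888: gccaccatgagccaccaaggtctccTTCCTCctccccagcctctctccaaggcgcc
The match lay 10 to 15 bases before the start for Fcgr3, 2 to 7 for Aif1, 45 to 50 for Clec4a3 and 125 to 130 for Axl. Cfp had a promoter in the table without the motif. Of 6 further motifs searched in the same way, CAGGAAG was present for Clec4a3. The remaining motifs AGATAA and TATAAA and CCACACCC and GGAAGT and TGACTCA were found for 0 of the 5 genes. A match is a description of the sequence and not a binding site.

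Among receptors of leukocytes, Fcgr3, an activating Fc receptor for IgG on macrophages, natural killer cells and granulocytes, had the lowest ratios of the group, -4.46 on array 2 and -3.24 on array 3. The mean of -3.85 corresponds to a 14.4-fold difference, and the centred mean was -3.07. Clec4a3, a C-type lectin receptor of myeloid cells, had -2.22 and -2.20 on these arrays (centred mean -1.43). Lilrb4a, an inhibitory receptor of the leukocyte immunoglobulin-like family, was measured on arrays 1 and 3 with -1.62 and -1.43. Fcgr3 and Clec4a3 lay at place 6 and Lilrb4a at place 3. Fc receptors, Clec4a genes and Lilrb4a have close relatives in the genome, and probe sequences were not used here, so signal from a relative cannot be told apart.

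Cd83, a surface protein of activated dendritic and other immune cells, was nearly equal on its arrays, with -2.34 on array 2 and -2.40 on array 3. Axl is a receptor tyrosine kinase that helps macrophages take up dying cells and is also made by mesenchymal cells. Its ratios were -2.76 and -1.81 on arrays 2 and 3, with a centred mean of -1.86 at place 6. Cfp, or properdin, stabilises the convertase of the alternative complement pathway, and it had -1.64 and -1.18 on arrays 2 and 3. Aif1, which encodes the macrophage protein Iba1, was measured on arrays 1 and 2 with -1.35 and -0.80. All 7 leukocyte genes also met the rule after centring, and they came from all 3 pairs of arrays.

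Leukocyte genes measured on all 3 arrays were tested by limma, while the genes above, having been selected on their ratios, were not. Over all 4399 probes limma called 1.55% lower and 1.32% higher in GFP+ cells at a Benjamini-Hochberg adjusted p of 0.05. By gene, 11 of the 36 tested genes of the list were lower and 1 was higher, where 1.40% of all 3915 genes were lower and 1.38% higher. The list's median was -0.57 against 0.034 over all genes tested. Leaving out array 1 gave 23 lower and 6 higher, with 738 lower (18.9%) and 1080 higher (27.6%) over all genes. Centring within the numbering gave 23 lower and 1 higher, with 630 lower (16.1%) and 576 higher (14.7%) over all genes.

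Hbb-y, an embryonic beta-like globin of primitive red cells, came next to Fcgr3 with -2.59 on array 2 and -2.57 on array 3, a mean of -2.58 or 5.99-fold lower. Globin genes are alike in sequence, so its signal may include other globins. Blvrb, a reductase that acts on the products of heme breakdown and is abundant in red cells, had -1.60 and -2.09, and its centred mean was -1.27 at place 6. Of the erythroid list, 2 of 15 genes tested on 3 arrays were lower by limma and 0 higher, where 1.40% and 1.38% of all genes were. With centring 4 of the 15 were lower (26.7%) and 2 higher (13.3%), where 16.1% and 14.7% of all genes were. Leaving out array 1 gave 6 lower (40.0%) and 4 higher (26.7%), where 18.9% and 27.6% of all genes were. The median of that list was -0.085.

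Stromal genes came from every pair of arrays. Nr2f2, the orphan nuclear receptor COUP-TFII of mesenchyme and veins, had -2.07 on array 2 and -1.93 on array 3 at place 4. Olfml3, a secreted olfactomedin-domain protein, had -2.12 on array 1 and -1.24 on array 3. Bgn, the matrix proteoglycan biglycan, had -2.02 on array 1 and -0.99 on array 2. For both genes with a value on array 1, that array gave the lower ratio.

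Adamts5, a protease that cuts large proteoglycans, had -2.08 on array 2 and -1.09 on array 3, with a centred mean of -1.22 at place 6. Gas1, a membrane protein that modulates hedgehog signalling, is also on the cap mesenchyme and podocyte lists and had ratios of -0.60 and -0.72. All 5 stromal genes met the rule after centring too. By limma, 11 of the 63 stromal genes tested on 3 arrays were lower (17.5%) and 1 higher, where 1.40% and 1.38% of all genes were. The median of the stromal list was -0.35. Leaving out array 1 gave 30 lower (47.6%) and 11 higher (17.5%), where 18.9% and 27.6% of all genes were. Leaving out array 2 gave 18 lower (28.6%) and 1 higher, where 70 of all 3915 genes were lower (1.79%) and 49 higher (1.25%). Without array 3 there were 10 lower (15.9%) and 1 higher, where 1.30% and 0.59% of all genes were. Centring gave 37 lower (58.7%) and 7 higher (11.1%), where 16.1% and 14.7% of all genes were.

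Some matrix and adhesion genes were on no list; Has2 and Tenm3 are named after their values were seen. Has2, the enzyme that makes hyaluronan, had -1.49 on array 2 and -1.42 on array 3 (centred mean -1.03, place 6). Tln1, or talin, joins integrins to actin, and its probe at place 6 had -1.77 and -1.42 (centred mean -1.17). A second probe of Tln1 at place 5 had values on all 3 arrays, -1.29, -1.86 and -1.61, so this gene was low on array 1 as well. Tenm3, a teneurin of cell contacts, had -1.51 and -1.43 (centred mean -0.90).

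Foxc2, a forkhead factor of kidney mesenchyme and podocytes, had -1.80 on array 2 and -1.75 on array 3 at place 4. Hoxd10 and Hoxa10, posterior Hox genes of metanephric mesenchyme, both lay at place 6. Hoxd10 had -1.50 and -1.37 (centred mean -1.07) and Hoxa10 had -1.38 and -2.16 (centred mean -1.16). Hoxa10 was lower on array 3 than on array 2, as 7 of the 64 probes at place 6 were. Hoxc9, named after its values were seen, had -0.66 on array 1 and -0.53 on array 3 and did not meet the rule after centring. By limma, 4 of 20 cap mesenchyme genes tested on 3 arrays were lower and 0 higher, with 1.40% and 1.38% over all genes. Leaving out array 1 gave 9 lower (45.0%) and 3 higher, where 18.9% and 27.6% of all genes were. Centring gave 13 lower (65.0%) and 1 higher (5.0%), where 16.1% and 14.7% of all genes were.

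Vessels were represented by Cdh5, the VE-cadherin of endothelial junctions, with -2.08 on array 2 and -1.28 on array 3 at place 6 and a centred mean of -1.26. It was the only one of 5 endothelial genes with exactly 2 values to meet the rule. On 3 arrays, 0 of 37 endothelial genes were lower by limma and 1 was higher, where 1.40% and 1.38% of all genes were. With centring 14 of the 37 were lower (37.8%) and 3 higher (8.11%), where 16.1% and 14.7% of all genes were. Leaving out array 1 gave 7 lower (18.9%) and 5 higher (13.5%), where 18.9% and 27.6% of all genes were, so the share of lower genes was that of all genes. Leaving out array 2, or array 3, gave 0 lower and 0 higher. Over all genes 1.79% were lower and 1.25% higher without array 2, and 1.30% and 0.59% without array 3. Array weights gave 10 lower (27.0%) and 5 higher (13.5%), where 22.0% and 33.4% of all genes were. The median of the list was -0.17 as deposited, -0.22 after centring and 0.078 without array 1.

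Foxc2 is on the early nephron and podocyte lists, and Gas1, given with the stromal genes, is also on the podocyte list. Apart from these, 3 genes of nephron epithelium met the rule. Enpep, the glutamyl aminopeptidase of podocytes and proximal tubule, had -0.97 on array 2 and -0.82 on array 3. Slc16a1, a lactate and pyruvate transporter, had -0.72 and -0.81. Gamt, the enzyme of the last step of creatine synthesis, had -0.71 and -0.41 and was the gene nearest the threshold. Enpep, Slc16a1 and Gamt lay at places 3 or 5. On 3 arrays, by limma, 1 of 19 proximal tubule genes was lower and 2 were higher, with a median of 0.15, and 7 of the 19 had a mean below 0. Of the early nephron list 0 of 12 were lower and 1 was higher (median 0.24). Of the podocyte list 3 of 14 were lower and 1 was higher (median 0.058). Over all genes 1.40% were lower and 1.38% higher. Leaving out array 1 gave 6 lower and 7 higher for proximal tubule, 3 and 6 for early nephron and 4 and 5 for podocyte, where 18.9% and 27.6% of all genes were. Centring gave 3 lower and 5 higher, 1 and 5, and 4 and 5 for these lists in the same order. With centring, 16.1% of all genes were lower and 14.7% higher. Of the proximal tubule genes with exactly 2 values, 1 was above 0.41 on both arrays.

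The cell cycle genes Fen1, a flap endonuclease of replication, and Bub1, a kinase of the spindle checkpoint, both lay at place 6, and neither met the rule after centring. Fen1 had -0.82 and -0.54 (centred mean -0.11) and Bub1 had -0.48 and -0.55 (centred mean -0.096).

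Further genes on no list reached low means, and 12 of the 20 genes of lowest mean were on a list. Of these 20, 14 lay at place 6 and all 20 met the rule after centring. Cdc42ep3, an effector of the small GTPase Cdc42, had -2.78 on array 2 and -1.57 on array 3 (centred mean -1.39). Cables1, which links cyclin-dependent kinases to other kinases, had -2.51 and -1.27 (centred mean -1.52). Gmip had -1.62 and -1.53 (centred mean -0.79). These 3 genes lay at place 6.

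Kdelr3, a receptor that returns proteins to the endoplasmic reticulum, had -1.69 and -1.66 on arrays 2 and 3 (centred mean -1.15, place 6). Septin12, of the septin family of GTP-binding filament proteins, lay at place 3 with -1.61 and -1.64. The centromere gene Cenpn had -2.11 and -0.96 (centred mean -0.75), and Snw1, a splicing and transcription cofactor, had -2.07 and -0.98 (centred mean -1.005), both at place 6. The first pair of genes was nearly equal on the arrays, and the second pair was lower on array 2 by more than 1.

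Mbl1, a mannose-binding lectin of innate immunity, is named after its values were seen and is on no list. It was measured on arrays 1 and 3 with -1.32 and -1.38. In all, 7 of the 101 probes had a value on array 1, and 0 of these were at place 6. Of the 7, 4 were on a list (Olfml3, Lilrb4a, Bgn and Aif1), and 6 met the rule after centring, Hoxc9 being the exception. Adad2, of the adenosine deaminase domain family, had -0.54 on array 1 and -0.89 on array 3. Every gene for which no pair is named was measured on arrays 2 and 3.

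Places 1 to 5 held 24 probes on no list, and the following genes among them are named after their values were seen. Pcdhga12, a clustered protocadherin of cell contacts, had -1.003 on array 2 and -1.07 on array 3, and its signal cannot be told apart from that of its close relatives. Rasgrp2, a Rap and Ras activator of blood cells and platelets, had -1.10 and -0.69. Eml1, a microtubule-binding protein, had -0.81 and -0.83, and Kcnmb4, a subunit of calcium-activated potassium channels, had -0.92 and -0.74. These 4 genes met the rule after centring.

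Spc25, a kinetochore protein of dividing cells that is not on the cell cycle list, had -0.75 and -0.57 and met the rule after centring, unlike Fen1 and Bub1. Il11ra2, of the interleukin 11 receptor family, had -0.67 and -0.56, and its relatives are nearly identical in sequence. Pcsk5, a protease that cuts growth factor precursors, had -0.50 and -0.45. Bcl10, a signalling adaptor of lymphocytes, had -0.73 and -0.42 and no longer met the rule after centring, and neither did Itsn1, an endocytic scaffold with -0.63 and -0.53.

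The largest block of the group had another shape. At place 6, 54 probes were on no list, and their median difference between array 2 and array 3 was -0.79. For the 19 list genes on these arrays the median difference was -0.13. Only 10 list genes lay at place 6, so these medians do not separate place from being on a list. An array 2 ratio lower than that of array 3 by over 0.5 was seen in 39 of the 64 probes at place 6. At places 1 to 5 it was seen in 0 of the 30 on the same arrays. Place 6 was not uniform. Its numbers with remainders on division by 24 of 0 or 18 (base set) and 9 or 15 (extended set) held 54 of the 64 probes, not the same 54 as above. Their median difference was -0.82. For the 10 other probes at place 6 it was -0.096, near the -0.10 of places 1 to 5. Median ratios at place 6 were -1.61 on array 2 and -0.78 on array 3, and at places 1 to 5 they were -0.77 and -0.71. Those in the next 2 paragraphs are named after their values were seen.

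Vps11 and Vps16 are core subunits of the complexes that tether vesicles to lysosomes. Vps11 had -2.01 on array 2 and -0.997 on array 3, with a centred mean of -0.98, and Vps16 had -1.66 and -0.72 (centred mean -0.67). Fmr1, the RNA-binding protein of fragile X syndrome, had -2.40 and -0.49 (centred mean -1.08). Polr3b, the second largest subunit of RNA polymerase III, had -1.74 and -0.68 (centred mean -0.43). After centring Vps11 met the rule, and Vps16, Fmr1 and Polr3b did not. Rest, a repressor of neuronal genes, had -1.92 and -0.84 at place 6, whereas a second Rest probe at place 4 with values on all 3 arrays had -0.0072, 0.45 and 0.25. These 2 probes thus differed in sign on arrays 2 and 3, and further probes of Rest had no value on any array. Centred, the low probe of Rest had a mean of -0.60 and still met the rule. The second probe is thus the only value of Rest on array 1.

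Stoml1, a stomatin-like membrane protein, had -2.29 on array 2 and -0.72 on array 3 (centred mean -0.72). Get3, an ATPase that inserts tail-anchored proteins into membranes, had -2.08 and -0.51 (centred mean -0.87). Acadl, a dehydrogenase of fatty acid oxidation, had -1.64 and -0.56 (centred mean -0.68). Opa1, which fuses mitochondrial inner membranes, had -1.32 and -0.77 (centred mean -0.26). In each of these 4 array 2 was lower than array 3 by over 0.5, and none of the 4 met the rule after centring. Tagln2, an actin-binding transgelin, had -1.76 and -0.89 (centred mean -0.96). Ppie, a cyclophilin of the spliceosome, had -1.94 and -0.76 (centred mean -0.98). Both had the same order of arrays and met the rule after centring. Of the 54 probes at place 6 on no list, 22 did so.

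Second probes were valued for few other genes. Smarca2, a chromatin-remodelling ATPase, had -0.65 on array 2 and -0.70 on array 3 at place 4, and its second probe, also at place 4, had 0.036, 0.46 and 0.30 on the 3 arrays. Fnbp1, a formin-binding membrane-bending protein, had -0.52 and -0.42 on arrays 2 and 3, and another of its probes missed the rule with -0.67 and -0.41. A further Fnbp1 probe, on arrays 1 and 3, had 0.32 and 0.16. A clone, left unnamed, had -1.33 and -1.22 on arrays 2 and 3. Its second probe had -0.40, 0.13 and 0.020 on the 3 arrays. So 1 gene, Tln1, had 2 probes that were both clearly low. For Rest, Smarca2, Fnbp1 and the clone, probes of the same gene disagreed.

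Near the threshold, the less negative ratio of the 5 closest named genes inside was -0.41 for Gamt and Thap1 and -0.42 for Fnbp1, Hdac5 and Tgfb2. Just outside lay another probe of Fnbp1 (-0.41), Lysmd2 (-0.40), Tpx2 (-0.40), Tpst1 (-0.39) and Fkbp9 (-0.39). Tpx2 was measured on arrays 1 and 3, and the others on arrays 2 and 3. Tgfb2, a secreted growth factor, had -0.57 and -0.42 on arrays 2 and 3. Thap1, a zinc-finger factor, had -0.72 and -0.41, and Hdac5, a histone deacetylase, had -0.42 and -0.54; both lay at place 6, with centred means of 0.0019 and -0.060.

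**Figure D4:**
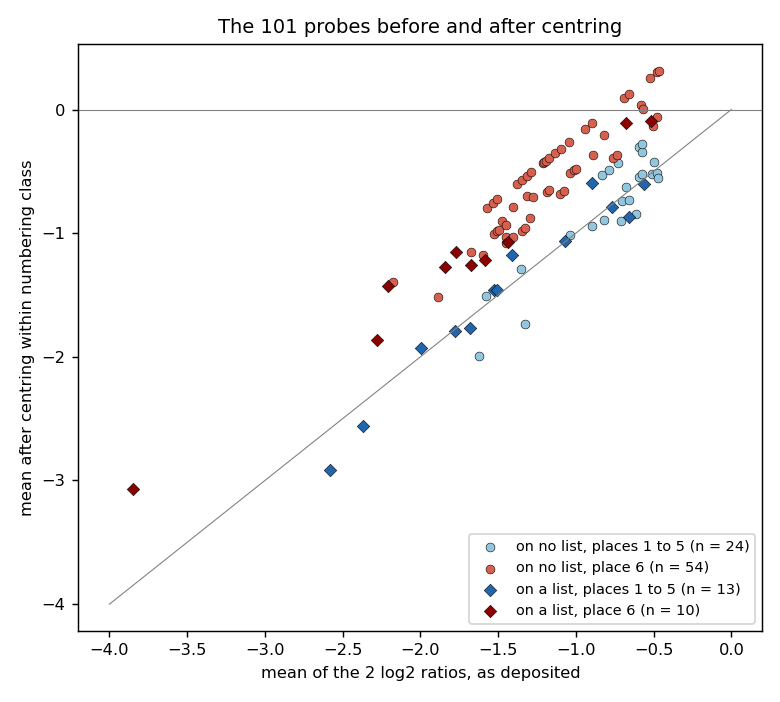
Mean of the 2 deposited log2 ratios (horizontal axis) against the mean after centring within the numbering (vertical axis) for the 101 probes, with diamonds for genes on a cell type list and red for place 6. The grey diagonal marks equal values. Probes at place 6 lie above the diagonal and reach 0.31, while Fcgr3 (-3.07), Hbb-y (-2.92) and Cd83 (-2.56) stay at the lower left.

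After centring, the 61 probes that still met the rule had a median of -0.98 and lay between -3.07 and -0.49. The 40 others had a median of -0.36, and 7 of them had a centred mean above 0. At places 1 to 5, 31 of 37 probes still met the rule, and at place 6, 30 of 64. The pairs contributed 55 of 94 for arrays 2 and 3, 4 of 5 for arrays 1 and 3 and 2 of 2 for arrays 1 and 2. The part of the numbering in the low ratios of single genes was not tested beyond this centring.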

How the data were processed

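The authors deposited log2 ratios of 2-colour Mouse Compugen arrays. Per the labels, images were read with Imagene 5.5, the ratios were normalised by Lowess (20% of the data per point) through the control value, which was held at 10 or more. The sources used here do not state the filter that emptied values. Base 2 fits the numbers: 99.97% of values are logs of whole thousandths (within 0.01 of a thousandth). Controls and blanks (883 features) were left out. Intensities were not analysed here, so signal over background is unknown; precision is limited by there being 3 arrays.

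Symbols came from the platform annotation, updated through gene identifiers to GRCm38.p6 RefSeq. The 4399 probes (3915 genes) with 3 values entered a two-sided test of a mean of 0 by limma 3.58.1 (R 4.3.3; lmFit and eBayes; Benjamini-Hochberg, threshold 0.05), a script tested on simulated data. Members, the 15 cell type lists and the rules were chosen with earlier results of these data known. Named were all members on a list, the 20 lowest means, the 5 genes on each side of the threshold and members with a second valued probe; clone names were left out. Centring within the numbering used 48 classes of 34 to 160 probes and was added after the data were seen. Alternatives were other thresholds, centring, scaling, array weights, values on at least 2 arrays and leaving out arrays.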

Additional observations from a re-analysis of the deposited data

How the results depend on the processing

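No paired analysis was possible because the 3 arrays form 1 group. With both ratios below -1, 28 probes, 26 genes and 15 list genes remained. Without place 6 there were 37 probes, 33 genes and 13 list genes, 4.64% of probes with exactly 2 values. With the rule turned to ratios above 0.41, the share was 5.28%. Counting only probes whose pair was left whole, the count lay between 2 (without array 3) and 94 (without array 1). At -0.58, and after centring or scaling of arrays, member counts stayed within 1.5 times.

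For probes on 3 arrays, limma called 68 lower and 58 higher. Leaving out each array gave 60 to 810 lower and 23 to 1225 higher, the most without array 1. Lower genes of lists other than ureteric and cell cycle numbered 32, and 31 to 87 with an array left out. Admitting probes with values on at least 2 arrays, those selected here among them, gave 96 lower and 73 higher. Array weights gave 1015 lower and 1597 higher. Centring within the numbering gave 662 lower, 608 higher and 99 lower list genes, and held all 68 and 58. Means turned positive with that centring for Acadsb (0.093), Prxl2a (0.13), Rnf180 (0.033), Thap1 (0.0019), Amz2 (0.26), Rnf41 (0.30) and Gid8 (0.31), all at place 6. The cause of the changes with array weights and without array 1 was not tested.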

Other observations

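Centring within the numbering brought 32 probes under the rule that had not met it as deposited, and they are named after their values were seen. They included B2m, the light chain of MHC class I, with -1.04 on array 1 and -0.20 on array 2, and Psmb8, an immunoproteasome subunit, with -0.38 on array 1 and -0.64 on array 3. H2-M3, an MHC class I heavy chain, had -0.57 on array 1 and -0.31 on array 3. Mmp2, a matrix metalloproteinase of the stromal list, had -0.38 on array 2 and -0.44 on array 3. Plxnd1, a semaphorin receptor of the endothelial list, had 0.23 on array 1 and -1.20 on array 3 at place 6, where array 1 ran high and array 3 low. After centring the pairs of arrays contributed 69 probes for arrays 2 and 3, 18 for arrays 1 and 3 and 6 for arrays 1 and 2, and Pearson's r across the probes of arrays 1 and 3 was 0.592, against -0.293 as deposited.

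Cldn4, a claudin on the ureteric list, had -0.66 on array 2 and 1.78 on array 3, so it met neither the rule nor its mirror.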
